A study of Saccharomyces cerevisiae with 4 samples.

Results

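The first steps of the citric acid cycle, and the regulators that can drive them, were followed in budding yeast through 9 genes. They are the citrate synthase genes CIT1, CIT2 and CIT3, the aconitase gene ACO1, the NAD-dependent isocitrate dehydrogenase genes IDH1 and IDH2, the retrograde regulator genes RTG1 and RTG3, and the retrograde target DLD3. Members were taken by gene symbol in the array's annotation, and each of the 9 had 1 probe set, out of 5656 genes that a probe set names alone. Signals came from Affymetrix Yeast Genome S98 arrays, 2 for strains expressing Snf1-I132G and 2 for strains expressing wild-type Snf1. Snf1 is the AMP-activated protein kinase of yeast, and Snf1-I132G is a form of it that the pyrazolopyrimidine inhibitor 2NM-PP1 was meant to inhibit specifically. Both groups were grown in SC-ura medium with 2% glucose, kept in 2% raffinose with 0.05% glucose for 120 min, and then given 25 µM 2NM-PP1 for 40 min. As every array came from inhibitor-treated cells, the I132G allele and the inhibition of the kinase cannot be told apart. RNA of 3 transformants was combined for each strain and processed in duplicate, so the spread between arrays may be technical and says nothing of separate cultures. Fewer cells of a kind and less RNA per cell likewise cannot be told apart.

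Citrate synthase joins acetyl-CoA to oxaloacetate, aconitase turns citrate into isocitrate, and isocitrate dehydrogenase yields 2-oxoglutarate, the carbon skeleton of glutamate. In the retrograde pathway of yeast, the paired transcription factors Rtg1 and Rtg3 answer to the state of mitochondria and to glutamate supply, and CIT2 and DLD3 are their standard reporter genes. The Hap2/3/4/5 complex activates many respiratory genes, and work on respiration-deficient yeast showed that CIT1, ACO1, IDH1 and IDH2 can pass from Hap to Rtg control.

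The comparison asked which transcripts differ when Snf1 can be inhibited in cells short of glucose. The genes for mitochondrial citrate synthase, aconitase and NAD-dependent isocitrate dehydrogenase were lower in Snf1-I132G, while the retrograde reporters and RTG3 were higher. CIT1, CIT3, ACO1, IDH1 and IDH2 fell, CIT2, RTG3 and DLD3 rose, and RTG1 did not pass the test. Differences are on the log2(signal + 16) scale, Snf1-I132G minus Snf1, and the threshold is a Benjamini-Hochberg adjusted p of 0.05 in limma over all 6956 tested probe sets. Thus 3 of the 9 genes were called higher, against 10.3% of all tested probe sets, and 5 were called lower, against 17.5%. Their median log2 difference was -0.81, which is the value of CIT3 itself, and that of all tested probe sets was -0.10. All 9 passed the brightness filter, but CIT3 did so only through its Snf1 arrays, and without CIT3 there were 4 falls. Both Snf1-I132G arrays lay above both Snf1 arrays for 3 of the genes, against 26.2% of tested probe sets, and below both for 5, against 41.0%. CIT3 is among those 5.

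**Figure D1:**
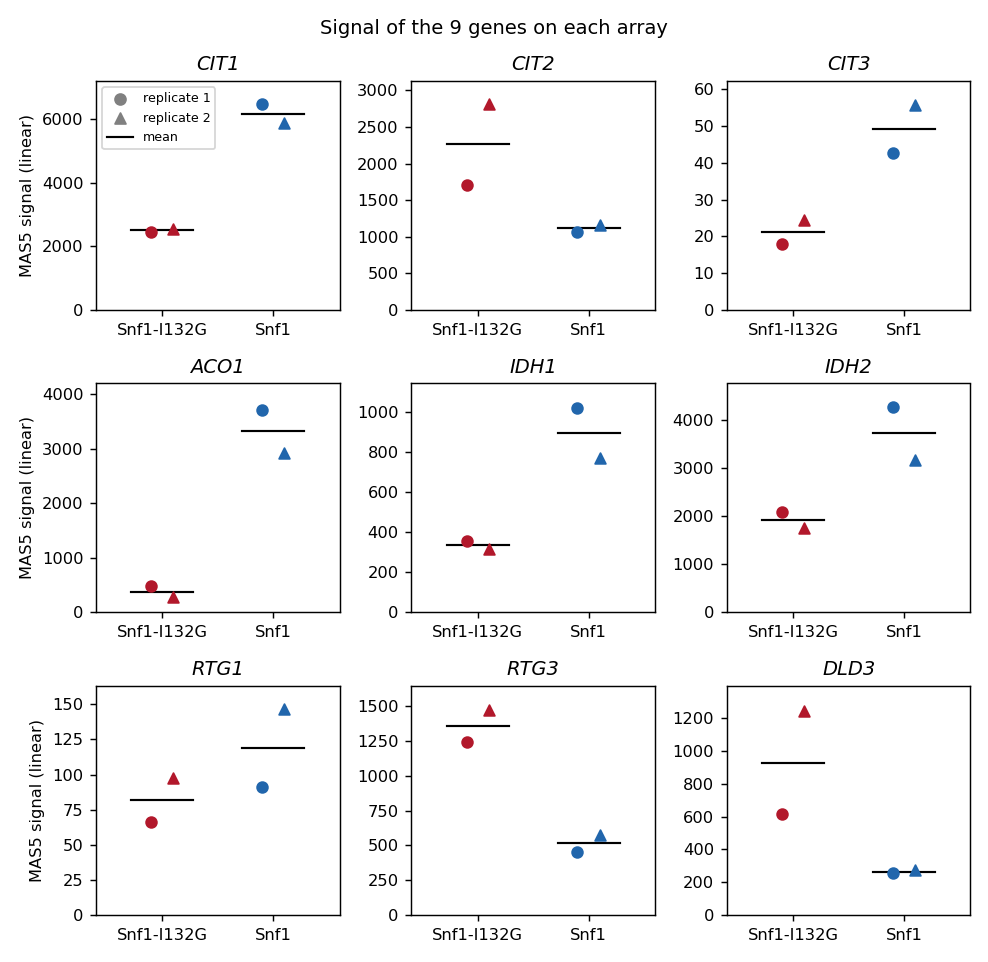
Signal (MAS5, linear scale from 0) of the 9 genes on each array, with Snf1-I132G left and Snf1 right, circles for replicate 1, triangles for replicate 2 and a line at the mean of each group. The groups overlap only for RTG1, and the Snf1-I132G arrays are above the Snf1 arrays for CIT2, RTG3 and DLD3.

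CIT1 encodes the mitochondrial citrate synthase of the cycle. It gave a signal of 2466 and 2553 on the Snf1-I132G arrays, against 6468 and 5885 on the Snf1 arrays. The Snf1-I132G arrays were close to each other and well below both Snf1 arrays. The log2 difference was -1.29 ± 0.15 (SE; 95% interval -1.66 to -0.92; limma, adjusted p = 0.00489).

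CIT2, for the peroxisomal citrate synthase that feeds the glyoxylate cycle, moved the other way. It gave a signal of 1714 and 2808 on the Snf1-I132G arrays, against 1064 and 1167 on the Snf1 arrays. The groups did not overlap, but the Snf1-I132G arrays differed 1.64-fold from each other. The log2 difference was 0.97 ± 0.26 (SE; 95% interval 0.33 to 1.61; limma, adjusted p = 0.0415). The rise of CIT2 was near the threshold, since the adjusted p was 0.0572 with no brightness filter and 0.0718 with arrays centred on hybridization controls. It was 0.0770 without Snf1-I132G replicate 2, where the difference was 0.61, and it was 0.135 without Snf1 replicate 1 and 0.0961 without Snf1 replicate 2.

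CIT3 encodes a further mitochondrial enzyme with citrate and methylcitrate synthase activity. Its probe set was dim, with 18.1 and 24.5 on the Snf1-I132G arrays, against 42.7 and 55.8 on the Snf1 arrays. Both Snf1-I132G values lie under the 25th percentile of their arrays, so the size of the change rests partly on the pseudocount of 16. The log2 difference was -0.81 ± 0.21 (SE; limma, adjusted p = 0.0410). CIT3 stood at the edge of the filter, with a mean signal of 35.3 where 35.01 was required. It was not tested when the filter used the mean log2 signal, an alternative chosen after seeing the data, or the 50th percentile, nor with either Snf1 array left out. Its adjusted p was 0.0658 after quantile normalization, 0.0745 with median centring and 0.0527 with no filter. It was 0.105 without Snf1-I132G replicate 1 and 0.0625 without Snf1-I132G replicate 2.

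Next to CIT3 in the RefSeq R64 gene order lies PDH1, for the methylcitrate dehydratase of propionate breakdown. PDH1 was dimmer still, at 9.19 and 23.4 on the Snf1-I132G arrays, against 39.9 and 57.0 on the Snf1 arrays. As with CIT3 the groups did not overlap, but PDH1 did not reach the filter and was not tested in the fit reported. With no filter its log2 difference was -1.02 (limma, adjusted p = 0.0643), and it reached the filter with either Snf1-I132G array left out. It then passed without replicate 2 (-1.34; limma, adjusted p = 0.0312) and did not pass without replicate 1 (-0.70; limma, adjusted p = 0.118). ICL2, for the methylisocitrate lyase that follows in that route, had 161 and 76.9 on the Snf1-I132G arrays, against 198 and 181 on the Snf1 arrays. ICL2 differed by -0.68 ± 0.33, which did not pass (limma, adjusted p = 0.177, and 0.0273 with same-numbered arrays entered as a block of pairs). Without Snf1-I132G replicate 1 the adjusted p of ICL2 was 0.0239.

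ACO1, for the mitochondrial aconitase, showed the largest change among the 9 genes. It gave a signal of 477 and 283 on the Snf1-I132G arrays, against 3711 and 2917 on the Snf1 arrays. Even the higher Snf1-I132G array was far below the lower Snf1 array. The level was 8.62-fold lower in Snf1-I132G on the log2(signal + 16) scale (log2 difference -3.11 ± 0.28; 95% interval -3.80 to -2.42; limma, adjusted p = 0.00287). Only 0.417% of the tested probe sets had a lower difference than ACO1.

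The NAD-dependent isocitrate dehydrogenase of mitochondria is built from Idh1, the regulatory subunit, and Idh2, the catalytic one. IDH1 had 355 and 317 on the Snf1-I132G arrays, against 1023 and 769 on the Snf1 arrays. IDH2 had 2088 and 1748 on the Snf1-I132G arrays, against 4270 and 3165 on the Snf1 arrays. For both subunit genes each Snf1-I132G array was below each Snf1 array, and in each group replicate 1 was the higher array. IDH1 differed by -1.36 ± 0.20 (limma, adjusted p = 0.00791) and IDH2 by -0.94 ± 0.21 (limma, adjusted p = 0.0241). The fall of IDH2 did not pass with median centring (adjusted p = 0.0698), without Snf1-I132G replicate 2 (0.0761) or without Snf1 replicate 1 (0.129).

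RTG1 and RTG3 encode the basic helix-loop-helix proteins that bind DNA as a pair. RTG3 had 1245 and 1472 on the Snf1-I132G arrays, against 454 and 575 on the Snf1 arrays, so each Snf1-I132G array was more than 2-fold above each Snf1 array. The log2 difference of RTG3 was 1.38 ± 0.19 (95% interval 0.91 to 1.84; limma, adjusted p = 0.00702). RTG1 had 66.5 and 97.3 on the Snf1-I132G arrays, against 91.3 and 147 on the Snf1 arrays. These groups overlap, and the higher array of each group was replicate 2. The log2 difference of RTG1 was -0.45 ± 0.28 and did not pass (limma, adjusted p = 0.281), with a 95% interval of -1.15 to 0.25 that leaves room for a fall of more than 2-fold.

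DLD3 encodes a cytosolic D-2-hydroxyglutarate transhydrogenase that also acts on D-lactate. It gave a signal of 614 and 1244 on the Snf1-I132G arrays, against 253 and 271 on the Snf1 arrays. The Snf1 arrays agreed closely, and the Snf1-I132G arrays, both higher, differed 2.03-fold from each other. The log2 difference was 1.68 ± 0.33 (95% interval 0.85 to 2.51; limma, adjusted p = 0.0182), and 98.6% of the tested probe sets had a lower difference. This was above the 1.38 of RTG3, but without Snf1-I132G replicate 2 DLD3 was at 1.18 and RTG3 at 1.26. Without Snf1 replicate 1 the adjusted p of DLD3 was 0.0508.

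The same-numbered arrays were taken as pairs that each hold both groups, and every one of the 9 genes had the same direction in both pairs. For all but RTG1 this had to be so, because the groups did not overlap. Both Snf1-I132G arrays lay above both Snf1 arrays for 26.2% of tested probe sets, and below both for 41.0%. ACO1 differed by -2.92 within pair 1 and -3.29 within pair 2, CIT1 by -1.39 and -1.20, IDH1 by -1.49 and -1.24, and IDH2 by -1.03 and -0.85. RTG3 was at 1.42 and 1.33, close to equal in the pairs. CIT2 was at 0.68 and 1.26 and DLD3 at 1.23 and 2.13, so both retrograde reporters had the larger difference in pair 2. CIT3 was at -0.79 and -0.83 and RTG1 at -0.38 and -0.52. With pairs as a block, where 19.5% of tested probe sets were called higher and 28.6% lower, the calls of the 9 genes were as without it, and RTG1 again did not pass (limma, adjusted p = 0.0587).

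**Figure D2:**
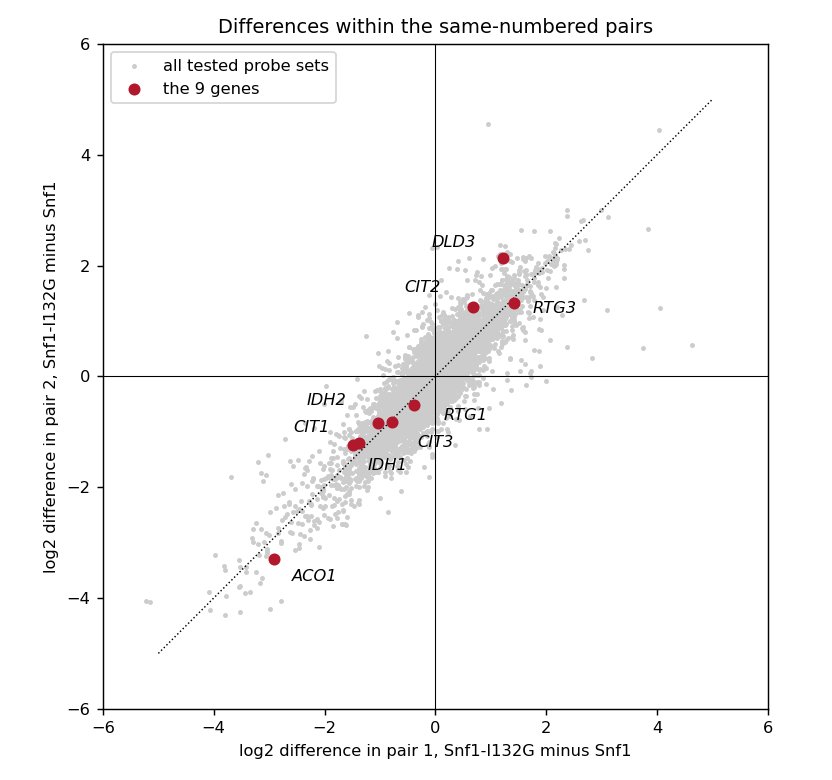
Log2 difference of (signal + 16), Snf1-I132G minus Snf1, within pair 1 (horizontal) and within pair 2 (vertical), for all tested probe sets in grey and the 9 genes in red, with equality dotted. CIT2 at 0.68 and 1.26 and DLD3 at 1.23 and 2.13 lie above the line of equality, while RTG3 lies near it.

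Whether related genes changed unequally was read from their ratio on each array, which the scaling of an array touches little. These ratios compare responses and do not say which gene is more highly expressed, because each probe set has its own sensitivity. With 2 arrays against 2, the exact two-sided permutation test cannot go below 0.3333, and each of the 6 ratios reached that value (adjusted p = 0.3333), since none overlapped between the groups. The log2 ratio of CIT2 over CIT1 was -0.52 and 0.14 on the Snf1-I132G arrays, against -2.59 and -2.32 on the Snf1 arrays. CIT2 thus gained on CIT1 by 2.26, or 4.79-fold, in Snf1-I132G, and the gain was 2.06 within pair 1 and 2.45 within pair 2. RTG3 over RTG1 shifted by 1.83, with values of 3.93 and 3.72 on the Snf1-I132G arrays, against 2.13 and 1.86 on the Snf1 arrays.

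DLD3 over CIT2 was -1.46 and -1.16 on the Snf1-I132G arrays, against -2.01 and -2.04 on the Snf1 arrays, a shift of 0.71. IDH2 over IDH1 was 2.51 and 2.40 on the Snf1-I132G arrays, against 2.04 and 2.02 on the Snf1 arrays, so the subunit genes differed in their fall by 0.42. CIT3 over CIT1 shifted by 0.49 and CIT3 over CIT2 by -1.77. As CIT3 is dim, its ratios depended on the pseudocount, and with a pseudocount of 1 the shifts were 0.12 and -2.15. The shifts of RTG3 over RTG1 and IDH2 over IDH1 depended on it less, at 1.62 and 0.33 with a pseudocount of 64.

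**Figure D3:**
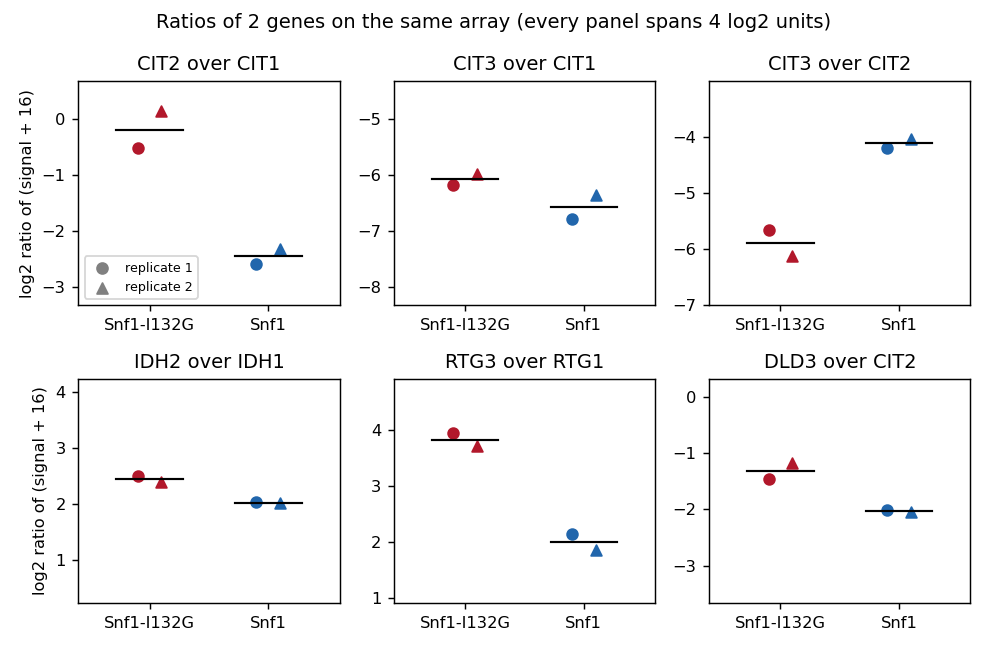
Log2 ratio of (signal + 16) of 2 genes on the same array, with Snf1-I132G left and Snf1 right, circles for replicate 1, triangles for replicate 2 and a line at the mean, each panel spanning 4 log2 units. CIT2 over CIT1 (shift 2.26) and RTG3 over RTG1 (shift 1.83) are higher in Snf1-I132G, and IDH2 over IDH1 shifts by 0.42.

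Other genes that handle citrate, isocitrate and oxoglutarate differed by isozyme. Of 7 tested, 3 fell, 1 rose and 3 did not pass, where 17.5% of all tested probe sets fell and 10.3% rose, with a median log2 difference of 0.18, above 0 although more of them fell, against -0.10 over all tested probe sets. IDP2, the cytosolic NADP-dependent isocitrate dehydrogenase gene, had 58.5 and 57.8 on the Snf1-I132G arrays, against 793 and 1101 on the Snf1 arrays (log2 difference -3.68 ± 0.21; limma, adjusted p = 0.00153). IDP1, for the mitochondrial NADP-dependent form, had 1701 and 2271 on the Snf1-I132G arrays, against 1523 and 1334 on the Snf1 arrays. IDP1 thus lay in the other direction from IDP2, at 0.46 ± 0.20, but did not pass (limma, adjusted p = 0.140, and 0.0391 with pairs as a block). IDP3, for the peroxisomal form, fell by 0.71 on the log2 scale, with 77.2 and 84.7 on the Snf1-I132G arrays, against 137 and 148 on the Snf1 arrays (limma, adjusted p = 0.0337). That call of IDP3 was lost without any 1 of the 4 arrays (adjusted p of 0.0641 to 0.203), with quantile normalization, with median centring and with no filter.

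The 2-oxodicarboxylate carriers of the mitochondrial inner membrane, which move oxoglutarate, moved in opposite directions. ODC1 had 172 and 206 on the Snf1-I132G arrays, against 1098 and 1199 on the Snf1 arrays (log2 difference -2.51 ± 0.17; limma, adjusted p = 0.00178). ODC2 had 317 and 274 on the Snf1-I132G arrays, against 140 and 105 on the Snf1 arrays (log2 difference 1.18 ± 0.20; limma, adjusted p = 0.0126). On each array the log2 ratio of ODC2 over ODC1 was 0.83 and 0.39 in Snf1-I132G, against -2.83 and -3.33 in Snf1, a shift of 3.69 that was computed after the values were seen. Without Snf1 replicate 2 the rise of ODC2 had an adjusted p of 0.0758. The citrate carrier genes CTP1, at 0.36 ± 0.19, and YHM2, at 0.18 ± 0.22 with a sign that changed when arrays were centred on hybridization controls, did not pass.

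Of 6 tested genes that act upstream of Rtg1 and Rtg3, 1 fell and 5 did not pass, at a median of -0.02. A single fall in 6 is near the 17.5% of all tested probe sets that fell. RTG2, the sensor that releases the pathway by binding the inhibitor Mks1, had 453 and 468 on the Snf1-I132G arrays, against 429 and 433 on the Snf1 arrays. Its log2 difference was 0.09 ± 0.15 with a 95% interval of -0.28 to 0.46. MKS1 itself was at 0.07 ± 0.23, the 14-3-3 genes BMH1 and BMH2 at 0.06 ± 0.14 and -0.23 ± 0.22, and LST8, for a TOR complex subunit that acts negatively on the pathway, at -0.10 ± 0.15. The signs of RTG2, MKS1, BMH1 and LST8 changed with the scaling of the arrays. GRR1, for the F-box protein that directs Mks1 to degradation, had 151 and 133 on the Snf1-I132G arrays, against 224 and 288 on the Snf1 arrays, and fell by 0.78 (limma, adjusted p = 0.0363). The call of GRR1 did not hold without any 1 of the 4 arrays (adjusted p of 0.0590 to 0.235), nor with quantile normalization, median centring or no filter.

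Of the 3 other reported retrograde targets, neither of the 2 that were tested passed, and PDH1, described above, was too dim to be tested. Among all tested probe sets 10.3% rose and 17.5% fell, so 2 genes without a call say little. Both Snf1-I132G arrays of PDH1 lay below both Snf1 arrays, the opposite direction to CIT2 and DLD3, but so did those of 41.0% of tested probe sets. ATO3, for a plasma membrane protein thought to export ammonium, had 1031 and 1415 on the Snf1-I132G arrays, against 855 and 1245 on the Snf1 arrays (log2 difference 0.22 ± 0.25; limma, adjusted p = 0.534). Those groups overlap, unlike those of CIT2 and DLD3. PYC1, for a pyruvate carboxylase, had 1676 and 3585 on the Snf1-I132G arrays, against 3373 and 4605 on the Snf1 arrays. Its log2 difference was -0.68 ± 0.38 (limma, adjusted p = 0.233, and 0.00790 with pairs as a block), and the adjusted p was 0.0301 without Snf1-I132G replicate 2.

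Among genes of the Hap complex HAP4, for the regulated, activating subunit, was lower. HAP4 had 208 and 318 on the Snf1-I132G arrays, against 1753 and 1799 on the Snf1 arrays, a log2 difference of -2.71 ± 0.22 (limma, adjusted p = 0.00256). The DNA-binding subunit genes HAP2, HAP3 and HAP5 did not pass, at -0.38 ± 0.19, -0.34 ± 0.17 and -0.19 ± 0.16. HAP2 did pass with arrays centred on hybridization controls (adjusted p = 0.0425). All 4 genes had both Snf1-I132G arrays below both Snf1 arrays, as had 41.0% of tested probe sets.

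**Figure D4:**
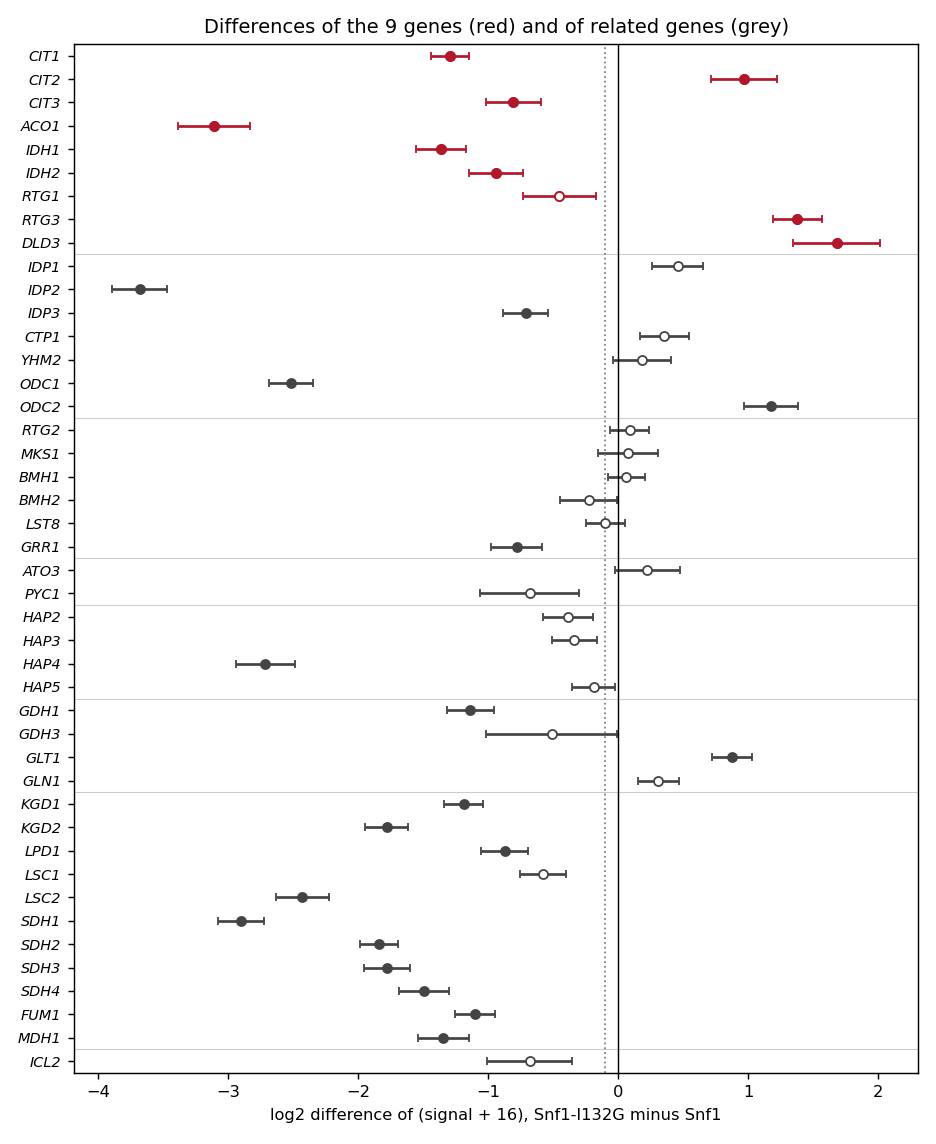
Log2 difference of (signal + 16), Snf1-I132G minus Snf1, with bars of 1 SE for the 9 genes in red and, between grey lines, the tested related genes in grey, where filled points passed the threshold and the dotted line is the median of all tested probe sets (-0.10). ACO1 at -3.11, IDP2 at -3.68 and HAP4 at -2.71 lie far to the left, and DLD3 at 1.68 farthest to the right.

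From oxoglutarate onward the cycle was lower as well. Of 11 tested genes 10 fell, where 17.5% of all tested probe sets did, and their median was -1.49. Falls numbered 9 with median centring, where 811 of 6956 tested probe sets were called lower. Fewer than 10 passed when Snf1-I132G replicate 2 or either Snf1 array was left out. LSC1 did not pass at -0.58 ± 0.18 (limma, adjusted p = 0.0642, and 0.00427 with pairs as a block). KGD2, for a subunit of oxoglutarate dehydrogenase, the next enzyme after Idh1 and Idh2, had 944 and 897 on the Snf1-I132G arrays, against 3511 and 2911 on the Snf1 arrays (log2 difference -1.78 ± 0.16). KGD1 was at -1.19 ± 0.15, FUM1, for fumarase, at -1.10 ± 0.16, and MDH1, for the mitochondrial malate dehydrogenase, at -1.34 ± 0.20. The call of FUM1 was lost without Snf1 replicate 1 (adjusted p = 0.0524). LPD1, for a subunit that oxoglutarate dehydrogenase shares with other complexes, was at -0.87 ± 0.18, and its call was lost with median centring and without Snf1-I132G replicate 2, Snf1 replicate 1 or Snf1 replicate 2 (adjusted p of 0.0501 to 0.134). CIT1, CIT3, IDH1 and IDH2 lay within the range of these 11 genes, -2.90 to -0.58. ACO1 lay below that range, but its 95% interval of -3.80 to -2.42 takes in SDH1, at -2.90 ± 0.18. Without Snf1-I132G replicate 2 ACO1 was at -2.75 and SDH1 at -2.73.

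Of 4 tested genes that use oxoglutarate to make glutamate and glutamine, 1 rose, 1 fell and 2 did not pass, where 10.3% of all tested probe sets rose and 17.5% fell. GDH1, for NADP-dependent glutamate dehydrogenase, had 2167 and 1720 on the Snf1-I132G arrays, against 4577 and 3967 on the Snf1 arrays (log2 difference -1.14 ± 0.18; limma, adjusted p = 0.0104). GLT1, for glutamate synthase, had 1725 and 1572 on the Snf1-I132G arrays, against 845 and 934 on the Snf1 arrays (log2 difference 0.88 ± 0.15; limma, adjusted p = 0.0127). The call of GLT1 was lost without Snf1 replicate 1 (adjusted p = 0.0885) and without Snf1 replicate 2 (0.0573), and that of GDH1 without Snf1 replicate 1 (0.0576). GLN1, for glutamine synthetase, was at 0.31 ± 0.16 and did not pass. GDH3 varied between replicates in both groups, at 814 and 2026 on the Snf1-I132G arrays, against 1313 and 2572 on the Snf1 arrays, and did not pass (-0.51 ± 0.50; limma, adjusted p = 0.479, and 0.0125 with pairs as a block).

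Likeness to ACO1 and to CIT2 was measured over the 4 arrays as the root mean square difference between log2 profiles, each centred on its own mean, across 5190 other named genes. Nearest to ACO1 were COX26, for a protein associated with cytochrome c oxidase, at 0.18 log2 units, the succinate dehydrogenase gene SDH1 at 0.19, and GLC3, for the glycogen branching enzyme, at 0.22. COX26 had 368 and 240 on the Snf1-I132G arrays, against 3357 and 3196 on the Snf1 arrays. Nearest to CIT2 were BUD14, a gene of bud site selection, at 0.05, RPA12, for a subunit of RNA polymerase I, at 0.05, and TAD3, for a tRNA adenosine deaminase subunit, at 0.07. BUD14 had 375 and 644 on the Snf1-I132G arrays, against 250 and 258 on the Snf1 arrays. BUD14 and RPA12 did not pass (limma, adjusted p = 0.0571 and 0.0680), while TAD3 did (0.0363). In these genes, as in CIT2, replicate 2 was the higher of the Snf1-I132G arrays, which is part of the likeness. The profiles hold 4 arrays each, which makes this a coarse measure.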

How the data were processed

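The authors deposited linear intensity values for each probe set, made by MAS5 according to the submitters' processing notes, which as given here name no version. The mean trimmed by 2% at each end was 500.4 to 500.5 on every array, so the arrays had been scaled, which spreads a change of most transcripts over the others. Median signals were 132 and 139 in Snf1-I132G, against 152 and 161 in Snf1, and the number of arrays limits the precision. Gene names came from the annotation of the platform, and of 9275 non-control probe sets 6504 had 1 gene, 328 several and 2443 none given. Probe sequences were not used here, so matches between related genes were not checked, and detection calls were not used. As the genome build of the array is not given here, coordinates were left out.

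Probe sets were tested if their mean signal over the 4 arrays reached the 25th percentile, which left 6956. Log2(signal + 16) was fitted in limma 3.58.1 (R 4.3.3; eBayes with an intensity trend, no covariates, 2 residual degrees of freedom). The fit was tested on simulated data with independent noise on each array and no pair effect. That simulation therefore says nothing of likeness between same-numbered arrays. Same-numbered arrays were taken as pairs because the file labels in their descriptions share a string, a reading that is not certain, and their deviations from the group means correlated at r = 0.513 across probe sets. The alternatives were the pair as a block, other scalings, pseudocounts, filters and variance models, 1 probe set per gene, and leaving out each array. The members and lists were chosen with earlier results of these data known. Genes named are the 9 members, the lists of related genes, and the 3 genes nearest to ACO1 and to CIT2.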

Additional observations from a re-analysis of the deposited data

How the results depend on the processing

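The 9 genes kept their direction under every alternative in which they were tested, but most alternatives could not have reversed it. The pair block, the filters, the variance models and 1 probe set per gene leave the size of a difference unchanged. Where the groups did not overlap, another pseudocount or a missing array cannot reverse the direction. For all but RTG1, only the other scalings could have reversed it. CIT1, ACO1, IDH1 and RTG3 passed in all 16 alternatives, and CIT2, CIT3, IDH2 and DLD3 did not pass in 5, 5, 3 and 1, while CIT3 was not tested in 4 more. Genes called lower numbered 3 with median centring, against 5 as reported. Leaving out each array in turn gave 1 to 3 genes higher, the 1 without Snf1 replicate 1, and 3 to 4 lower, the 3 without Snf1-I132G replicate 2 or Snf1 replicate 1. Over all tested probe sets, 713 were higher and 1219 lower. The pair as a block gave 1356 and 1986, and changed no call of the 9 genes. Median centring gave 957 higher and 811 lower, and centring on 9 hybridization controls 491 and 2110, so rises were 54.1% and 18.9% of the calls, against 36.9% as reported and 47.6% after quantile normalization. The median log2 difference of all tested probe sets was -0.10 as reported, 0.02 after quantile normalization, 0.09 with median centring and -0.33 with hybridization controls. Leaving out each array gave 318 to 657 higher and 442 to 1061 lower, the fewest without a Snf1 array. There the lone array of a group takes its spread from the other group. Small differences of BMH1, LST8, RTG2, MKS1, YHM2 and ATO3 changed sign with the scaling. The causes were not tested. Dim probe sets such as CIT3 and PDH1 are limited by signal over background.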
